A study of Caenorhabditis elegans with 4 samples.

Results

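The sites described here are the LIN-61 peaks of the right arm of chromosome II in the nematode Caenorhabditis elegans. The arm was taken as the last 33.3% of the chromosome, and a peak belonged to it when its centre lay beyond 66.7% of the 15279345 bases of chromosome II on build WS220. This rule found 900 of the 13662 peaks in the combined list, 766 of 11742 nuclear peaks in the list of ChIP replicate 1 and 636 of 9436 in the list of ChIP replicate 2. The stretch is 5.09 Mb long, which is 5.08% of the nuclear genome, and it held 6.59%, 6.52% and 6.74% of the peaks in these lists. The series used ChIP-seq (chromatin immunoprecipitation, then sequencing of the bound DNA) to map LIN-61 in wild-type L3 larvae of strain N2, a mixed population of males and hermaphrodites grown at 20 degrees Celsius. It has 2 LIN-61 ChIP libraries, made with an affinity-purified rabbit polyclonal antibody, and 2 input DNA libraries. Whole larvae were used, so each peak is an average over all tissues. Nothing in the labels says that the replicates were separate cultures, and their spread could be technical. The p-values here reflect only whether both libraries differ in the same direction. They say nothing of variation between cultures. No peak list of an input library and no read counts were analysed here, so the depth behind each peak is unknown and any comparison with control DNA rests on the authors' peak calls.

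LIN-61 is a chromatin protein built of MBT repeats, modules that bind methylated histone tails. It binds histone H3 methylated at lysine 9, the mark of heterochromatin, and belongs to the synMuv B proteins, which repress vulval cell fates together with other repressors. In this worm the mark is concentrated on the outer parts of the autosomes, where repeats are frequent, and it helps to hold the chromosome arms at the nuclear periphery. Sites are given by their position on build WS220, since no genome sequence or gene annotation of that build was used here.

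Peaks were unevenly spread along the arm, sparse next to the chromosome centre and dense further out. When the arm was divided into 3 equal stretches of 1.70 Mb, the inner stretch held 140 combined peaks, the middle stretch 400 and the outer stretch 360. In replicate 1 the numbers were 124, 344 and 298, and in replicate 2 they were 114, 281 and 241. The inner stretch was thus the sparsest and the middle stretch the densest in each of the 3 lists. This order is not particular to the right arm. The mirrored stretches of the left arm held 145, 348 and 326 combined peaks, with the same order in each list. In the combined list the inner stretch had 82.5 peaks per Mb, against 62.0 in the chromosome centre. The outer stretch had 2.57 times as many peaks as the inner one in the combined list, 2.40 times in replicate 1 and 2.11 times in replicate 2. Median score had no common order over the stretches. It was 8.43 in the inner, 7.465 in the middle and 7.90 in the outer stretch of the combined list, 6.90, 7.015 and 6.95 in replicate 1, and 6.40, 6.69 and 8.18 in replicate 2. The inner stretch thus had the highest median in the combined list and the lowest in both replicates. The score is the value the authors' peak caller gave each peak and its quantity is not named.

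**Figure D1:**
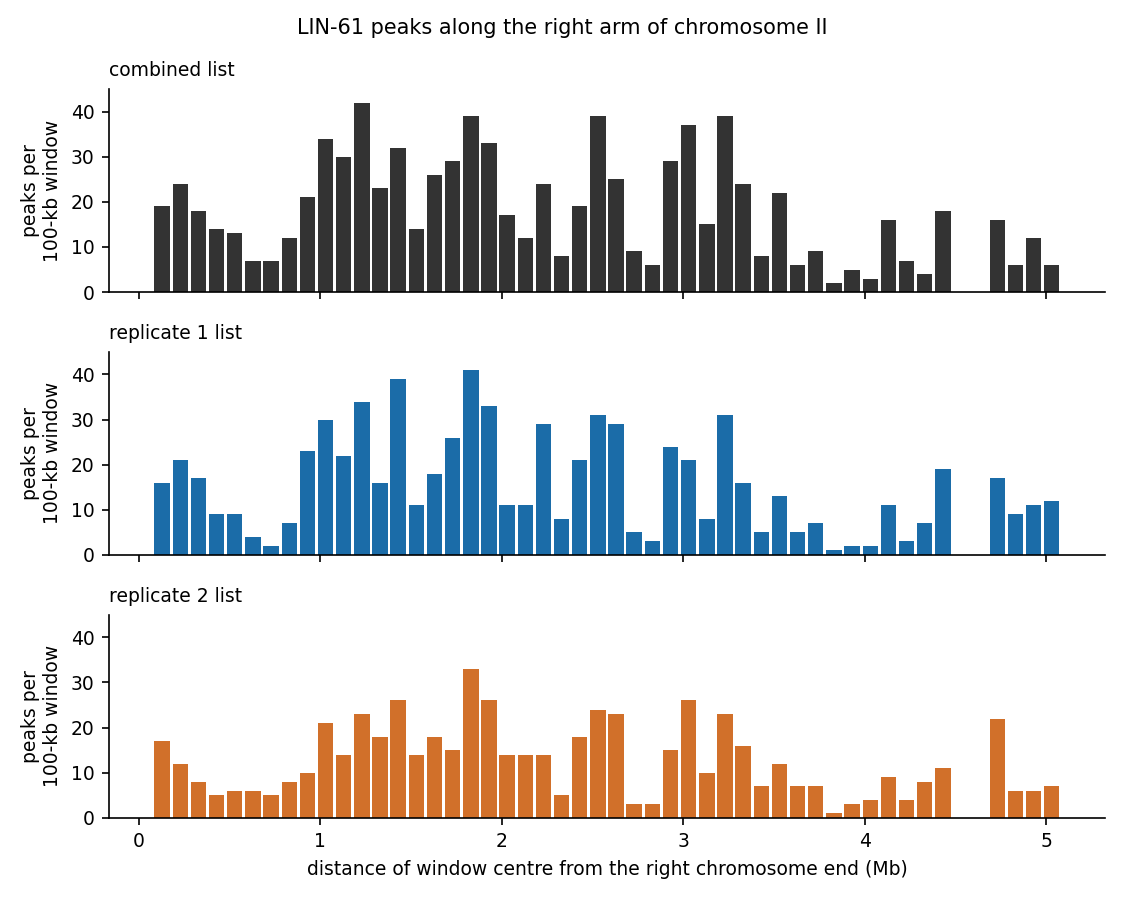
Number of LIN-61 peaks in each 100-kb window of the right arm of chromosome II (bars) against the distance of the window's centre from the right chromosome end in Mb, for the combined list and each replicate list. The 3 lists show the same dense and sparse windows, with 2 windows that hold no peak in any list and a thinner zone within the outermost 1 Mb. The windows end at 15200000, so the remainder of the arm up to the chromosome end is not drawn.

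At a finer scale the same windows were rich or poor in both replicates. Over the 50 windows of 100 kb that lie wholly in the arm, the number of combined peaks ranged from 0 to 42 with a median of 16. It ranged from 0 to 41 in replicate 1 and from 0 to 33 in replicate 2. The percentage of each window covered by peaks was correlated between the replicates, with a Spearman's rho of 0.94 and a Pearson's r of 0.93 over these windows. This is a description, because the windows share their libraries and neighbouring windows share long peaks. Among these windows, the one with the highest coverage in the combined list was 13400001 to 13500000, with 30.5% of its bases in peaks. It had 25.6% in replicate 1 and 15.6% in replicate 2. It was followed by 12000001 to 12100000, with 26.4%, 20.6% and 16.3% in the same order of lists. The third was 12700001 to 12800000, with 25.8%, 19.8% and 14.8%. These windows ranked 1, 2 and 3 in replicate 1 and 4, 3 and 5 in replicate 2, where the window at 10500001 to 10600000 ranked 1.

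Density along the arm rose over a short distance and dipped again before the end. From 11000001 to 11500000 the combined list had 66 peaks per Mb, replicate 1 had 38 and replicate 2 had 42. From 12000001 to 12500000 the values were 252, 174 and 154 peaks per Mb, and the 500 kb between them had 138, 92 and 98. Among the full 500-kb windows, density was highest at 14000001 to 14500000 in the combined list, with 278 peaks per Mb, and at 13000001 to 13500000 in the replicates, with 250 in replicate 1 and 202 in replicate 2. The next stretch outward, 14500001 to 15000000, had only 118, 82 and 60 peaks per Mb. Beyond it, the last 0.279 Mb again had 226, 190 and 208. The replicate 2 value there counts 58 peaks, of which 17 are pieces of 1 combined peak of 25119 bp. The dip and the recovery were present in all 3 lists.

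The inner stretch held a long interval with no LIN-61 peak, and its edges lay at nearly the same bases in each list. In replicate 1 no peak was called over 225015 bp, from 10595130 to 10820144. In replicate 2 the empty interval was 225003 bp, from 10595110 to 10820112. In the combined list it was 217444 bp, from 10595141 to 10812584, and was closed by a peak of 160 bp with a score of 3.21 that neither replicate list contained. The next longest gaps within the arm were 130891 bp in replicate 1, 132659 bp in replicate 2 and 75406 bp in the combined list. Such an interval is not particular to this arm, since it was not among the 8 longest peak-free intervals of the nuclear genome in any list. Of the windows with any peak, 11200001 to 11300000 had the lowest coverage in the combined list, with 3 peaks over 0.88% of it, and in replicate 1, with 0.50%. The window at 11400001 to 11500000 had fewer peaks, 2 in the combined list and 1 in each replicate, and the lowest coverage in replicate 2, with 0.15%.

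A dense tract ended 35.6 kb before the empty interval began in replicate 1, with 3 narrow combined peaks between them. In replicate 1 it was a run of 10 peaks from 10541595 to 10559486, of which 90.8% was covered. In replicate 2 it was also a run of 10 peaks, from 10542179 to 10559539, with 87.8% covered. In the combined list 95.9% of the replicate 1 run was covered, and the run included a peak of 8135 bp at 10546070 to 10554204 with a score of 70.10, the third widest of the arm.

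**Figure D2:**
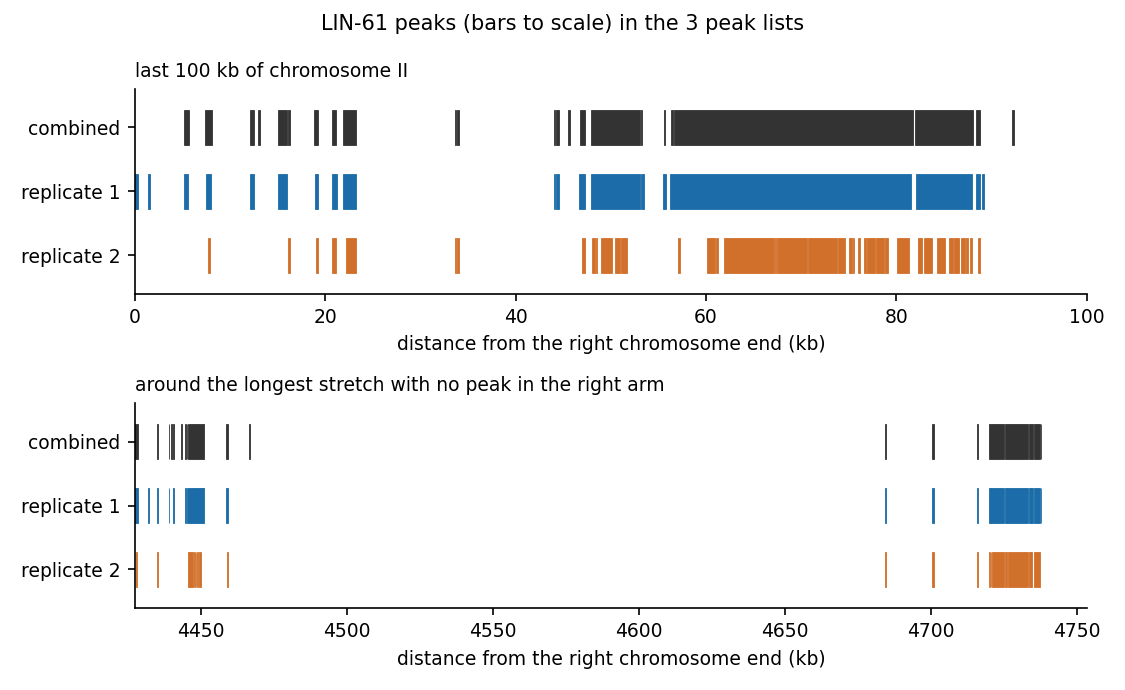
Maps of LIN-61 peaks in the 3 lists, drawn to scale against the distance from the right end of chromosome II in kb. The upper map shows the last 100 kb, where a tract of 25119 bp in the combined list is 1 peak in replicate 1 and 17 peaks in replicate 2, and the lower map shows the longest interval with no peak, of 217444 bp in the combined list, between the tract at its right and the peaks at its left.

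The arm's peaks overlapped replicate peaks in shares near those of the whole genome. Of the 900 combined peaks, 389 were met by peaks of both replicates over at least 1 bp (43.2%, 95% Wilson interval 40.0 to 46.5), while 45.3% of all combined peaks were. A further 245 had a match in replicate 1 alone and 80 in replicate 2 alone. The other 186 matched neither list (20.7%, 95% Wilson interval 18.1 to 23.4), against 20.3% of all combined peaks. Between the replicate lists, 446 of 766 replicate 1 peaks (58.2%, 54.7 to 61.7) had a partner in replicate 2, against 59.1% over the nuclear genome. In the other direction 525 of 636 replicate 2 peaks (82.5%, 79.4 to 85.3) had a partner in replicate 1, against 85.0%. These intervals reflect counting error alone and take each peak as independent of its neighbours. How the combined list was made is not stated. If it drew on the same 2 libraries, its overlap with their lists is not independent support. The left arm of the same chromosome had higher shares, with 53.6% of combined peaks in both replicates (50.2 to 57.0), 64.9% of replicate 1 peaks with a partner and 90.1% of replicate 2 peaks with one.

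Support followed the score closely. In the strongest of 4 parts of the combined list by score, which began at 18.79 in this arm, 205 of 206 arm peaks (99.5%) overlapped both replicates. In the next part, from 8.61 to 18.56, it was 148 of 214 (69.2%). In the part from 4.70 to 8.58 it was 33 of 229 (14.4%), and in the weakest part 3 of 251 (1.20%). Over all combined peaks the shares were 98.7%, 67.2%, 14.3% and 1.34%, near those of this arm. The left arm had 97.8%, 61.5%, 13.5% and 1.85% in the same parts. Within a part of like score, the arms of chromosome II thus differed by at most 7.66 percentage points, and the share was higher in the right arm in 3 of the 4 parts. The arms differed in how many peaks fell into each part, since 22.9% of right-arm peaks and 38.2% of left-arm peaks were in the strongest one.

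**Figure D3:**
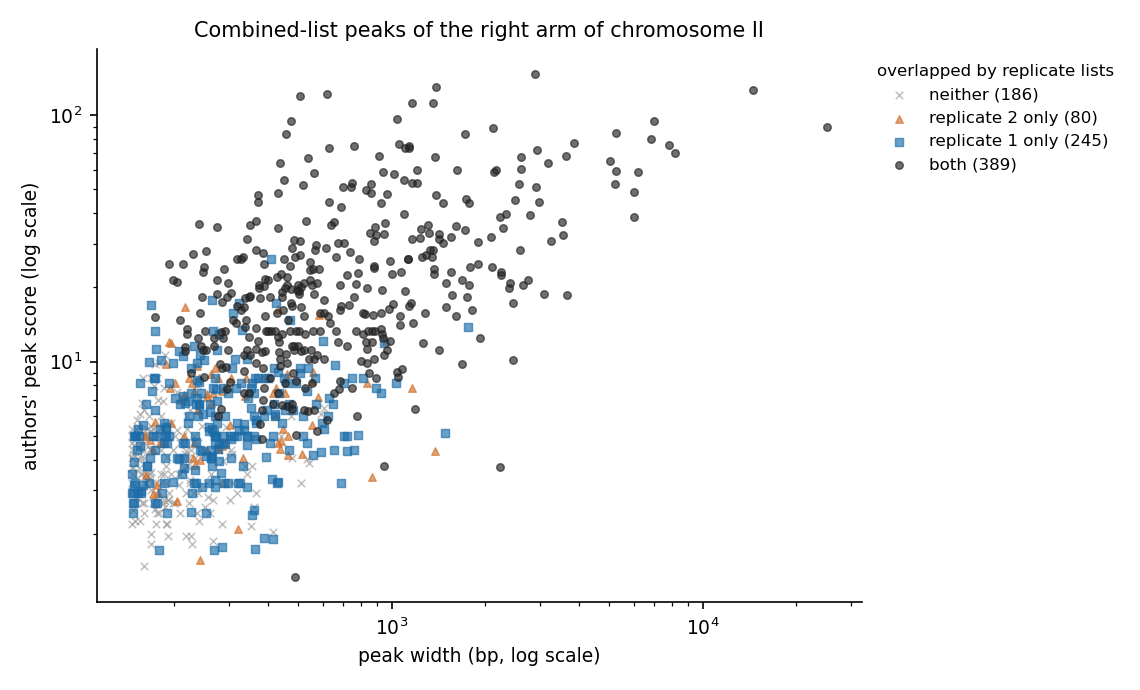
Width in bp (x axis, log scale) and authors' score (y axis, log scale) of the 900 combined-list peaks of the right arm of chromosome II, with the marker showing which replicate lists overlap the peak. All 48 peaks of 2 kb or more overlap both replicates, as do 615 of 625 such peaks (98.4%) in the whole combined list. The 186 peaks found in neither replicate have scores of at most 10.68, against at most 13.68 in the whole list.

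Wide peaks scored higher. Across the arm's peaks, width and score had a Spearman's rho of 0.68 in the combined list and 0.68 and 0.66 in replicates 1 and 2, as a description within each list. Peaks in both replicates had a median width of 621 bp and a median score of 19.69. Those in neither had medians of 184 bp and 3.82. The strongest of the latter were 3 short peaks at 11714778 to 11714964, 14792044 to 14792222 and 14001044 to 14001217, with scores of 10.68, 9.83 and 9.73.

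Where a site was called once in each replicate, the calls lay close together. There were 339 pairs of arm peaks that overlapped each other and no other peak. Their centres were a median of 47.5 bp apart, and in 268 pairs (79.1%) the distance was at most 100 bp. The median width in these pairs was 397 bp in replicate 1 and 333 bp in replicate 2. Their scores were correlated with a Spearman's rho of 0.68 and a Pearson's r of 0.79, again as a description over sites of the same 2 libraries. All of the 20 best-scoring arm peaks of replicate 1 had a partner in replicate 2, and all of the 20 best of replicate 2 had one in replicate 1. The pairs and best peaks of other regions were not examined in this way, so neither result is shown to be particular to the arm. In the strongest of the 4 parts of the whole combined list, 98.7% of peaks overlapped both replicates.

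The right arm was compared with the centre and the left arm of chromosome II to place its density. Right-arm density was 150.4 peaks per Mb in replicate 1, where the centre had 51.8, and 125 in replicate 2, where the centre had 32.4. The difference averaged 95.5 ± 4.30 peaks per Mb (SD, n = 2), with the right arm higher in both libraries. Against the left arm, the right arm had 150.4 and 145 peaks per Mb in replicate 1, and 125 and 121 in replicate 2. This difference averaged 4.42 ± 0.69 peaks per Mb (SD, n = 2), with the right arm again higher in both libraries. Each library gives 1 difference, so an exact two-sided sign-flip permutation test over the 2 libraries gave p = 0.5 for both comparisons, which is the smallest value it can give. With 2 libraries this test cannot pass a threshold of 0.05 for any of these differences.

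Right-arm peaks scored lower than left-arm peaks. The median score of replicate 1 peaks was 6.95 in the right arm and 12.02 in the left arm. In replicate 2 it was 7.00 in the right arm and 9.585 in the left arm. In the combined list it was 7.83 in the right arm and 11.54 in the left arm. The right arm was lower in both libraries, by 3.83 ± 1.76 on average (SD, n = 2, exact two-sided permutation test, p = 0.5, the smallest possible). The centre did not differ in 1 direction, since the right arm was above it by 0.97 in replicate 1 and fell below it by 0.35 in replicate 2.

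Strong peaks were correspondingly fewer in the right arm. Of its combined peaks, 73 of 900 (8.11%, 95% Wilson interval 6.50 to 10.1) belonged to the top 10% of the list by score, which because of ties is 10.1% of all peaks. In the left arm it was 164 of 819 (20.0%, 17.4 to 22.9). In replicate 1 the top 10% included 54 of 766 right-arm peaks (7.05%) and 152 of 741 left-arm peaks (20.5%), beside 10.1% of the list. In replicate 2 it included 63 of 636 right-arm peaks (9.91%) and 118 of 616 left-arm peaks (19.2%), beside 10.0%. The difference between right and left arm averaged -11.4 ± 2.98 percentage points (SD, n = 2, exact two-sided permutation test, p = 0.5). Which arm had more peaks depended on the score: among combined peaks below the median score of the list, the right arm had 1.44 times as many as the left, and among the top 10% it had 0.45 times as many.

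The lower scores of the right arm were seen at equal width. Among combined peaks of 500 to under 1000 bp, the median score was 13.35 over 168 right-arm peaks and 26.00 over 197 left-arm peaks. In replicate 1 these medians were 11.745 and 31.15, and in replicate 2 they were 12.03 and 24.59. Among peaks of 1000 to under 2000 bp they were 26.35 in the right arm and 48.14 in the left arm for the combined list, 26.355 and 49.79 for replicate 1, and 18.44 and 31.78 for replicate 2. Right-arm medians were below left-arm medians in each of the 5 width classes in all 3 lists. Against all nuclear peaks of 500 to under 1000 bp, whose medians were 16.21, 14.89 and 13.83, the right arm lay nearer than the left.

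**Figure D4:**
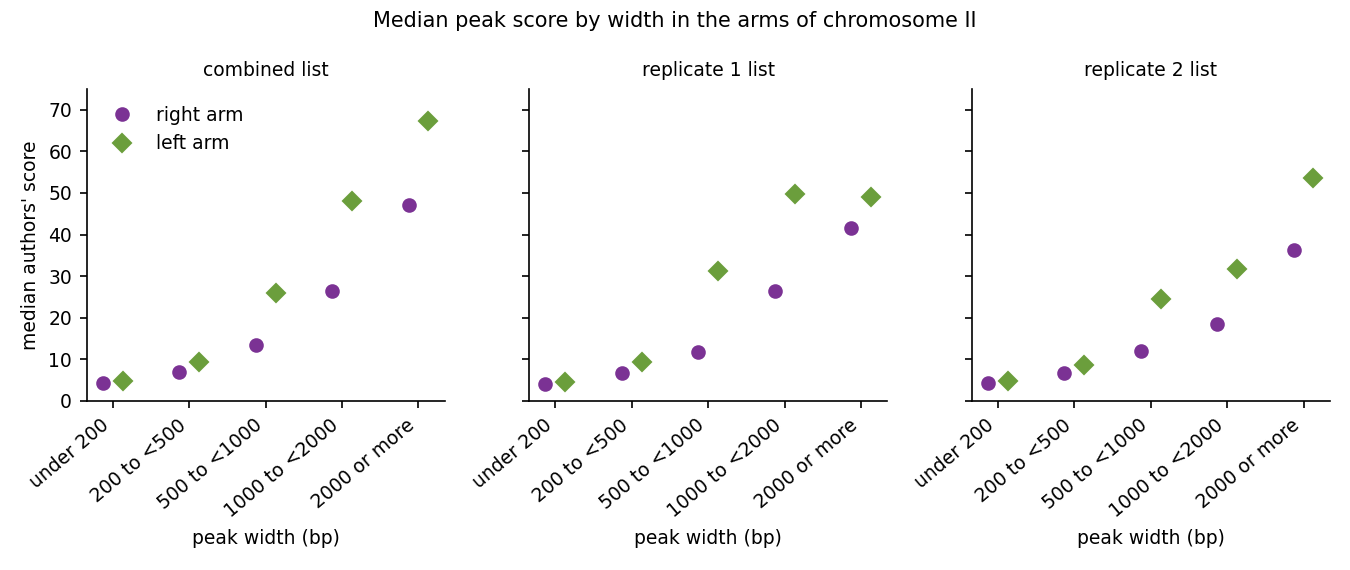
Median authors' score (y axis) of peaks in 5 classes of width in bp (x axis), for the right arm (circles) and the left arm (diamonds) of chromosome II, in each of the 3 peak lists. Right-arm circles lie below left-arm diamonds in every class, for example 13.35 and 26.00 at 500 to under 1000 bp in the combined list.

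Set beside the other autosome arms, the right arm of II was in the middle of the order in density and low in median score. It ranked 6 of 10 arms by peaks per Mb in all 3 lists, where the values ran from 112 on the left arm of V to 294 on the left arm of III in the combined list. By median score it ranked 7 in the combined list and 8 and 9 in replicates 1 and 2. By the share of peaks in the top 10% of the list by score it ranked 6 in the combined list and 7 and 4 in replicates 1 and 2. The left arm of II ranked 2 by median score in each list, after the left arm of III. By the share of peaks of 2 kb or more, the right arm of II ranked 3 in the combined list and 3 and 1 in replicates 1 and 2. Some of these ranks rest on near ties. In replicate 2 the share was 4.09% in the right arm of II and 4.04% in the right arm of IV. In the combined list it was 5.333% in the right arm of II and 5.335% in the left arm of IV. These ranks are descriptions, and no difference between chromosomes was tested.

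**Figure D5:**
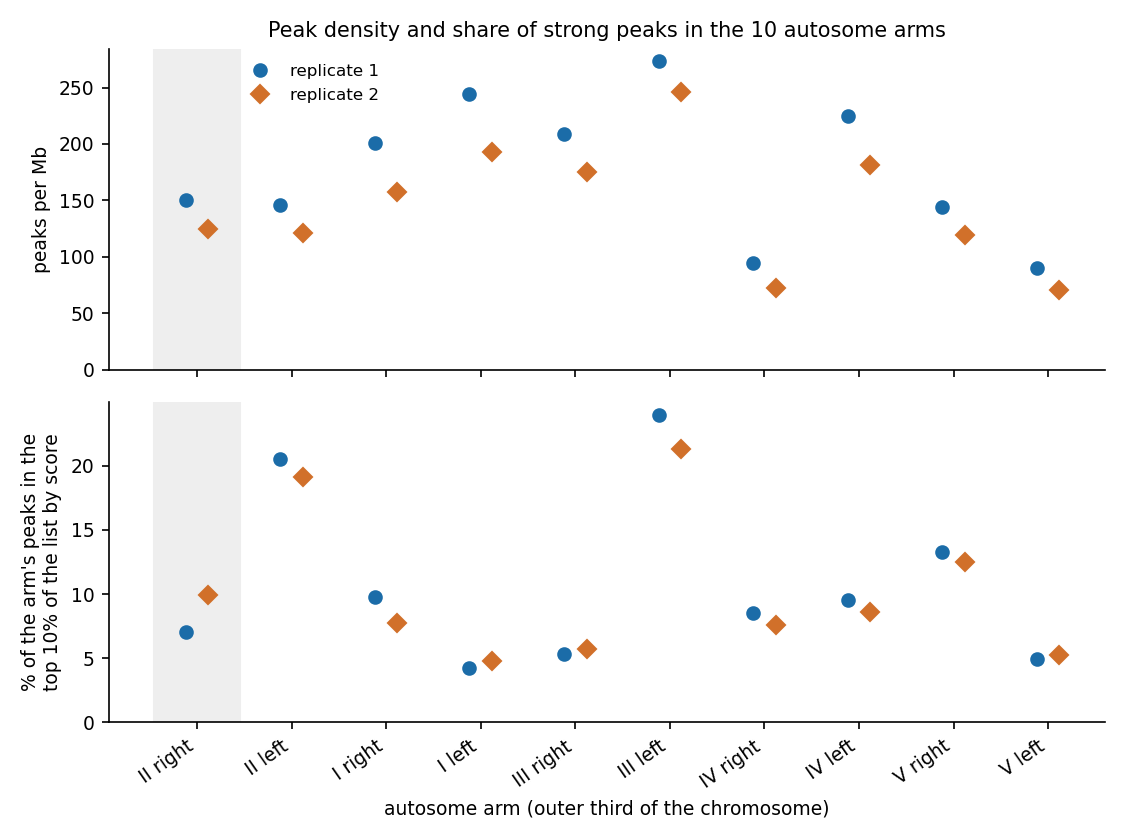
Peaks per Mb (upper panel) and the percentage of an arm's peaks that belong to the top 10% of their list by score (lower panel) in the 10 autosome arms, for replicate 1 (circles) and replicate 2 (diamonds). The right arm of II, shaded, lies close to the left arm of II in density, at 150.4 and 125 against 145 and 121, and below it in the share of strong peaks, at 7.05% and 9.91% against 20.5% and 19.2%.

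Wide peaks made up much of what LIN-61 covered in this arm. Peaks of the combined list covered 11.5% of the arm, those of replicate 1 9.13% and those of replicate 2 6.77%. The 48 combined peaks of 2 kb or more were 5.33% of the arm's peaks, against 4.57% of the whole list, and held 34.5% of its peak length, against 27.3% over all nuclear peaks. In the left arm 36 such peaks held 25.6%. In replicate 1 there were 34 such peaks in the right arm, 4.44% of its peaks against 3.88% of the list, and 28 in the left arm. In replicate 2 there were 26 in the right arm, 4.09% against 2.26%, and 13 in the left arm. A total of 13 of 900 right-arm peaks in the combined list reached 5 kb, beside 8 of 819 in the left arm and 0 in the centre. In the whole list 93 of 13662 did. Other arms had like numbers, with 14 of 1350 on the left arm of III and 13 of 1387 on the left arm of IV.

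The replicates covered these wide sites to different degrees. Of the 48 wide combined peaks, 24 corresponded to 1 peak in replicate 1 and 24 to 2 or more. In replicate 2 only 14 corresponded to 1 peak, and 34 were broken into up to 17. Replicate 1 peaks covered 92.9% of the bases of the wide peaks and replicate 2 peaks covered 77.8%. The lowest coverage of any of them was 63.0% in replicate 1 and 38.6% in replicate 2. The number of peaks at these sites thus depended on the list. Wide peaks of other regions were not examined in this way, so this is not shown to be particular to the arm. Over the whole nuclear genome, replicate 1 peaks covered 6.67% of bases and replicate 2 peaks 4.61%.

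The widest peak of the arm, of 25119 bp at 15197651 to 15222769, ended 56.6 kb from the right end of the chromosome. Its score of 89.25 ranked 11 among the arm's peaks. In replicate 1 it was 1 peak of 25332 bp with a score of 108.00, ranking 8 in the arm. In replicate 2 its 17 pieces covered 70.4% of it and the best of them, 3075 bp at 15205574 to 15208648, had a score of 57.16 and ranked 12. A second peak of 6026 bp at 15191337 to 15197362 lay on its inner side, and another of 5232 bp at 15226240 to 15231471 on the side of the chromosome end. Coverage of the last 100 kb was 44.5% for the combined list, 43.6% for replicate 1 and 27.5% for replicate 2.

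The last 50 kb were more thinly covered, with 18.1%, 16.1% and 8.56% of bases in peaks. One narrow site there was strong in each list. It spanned 458 bp at 15258233 to 15258690 with a score of 84.37 in the combined list, and had scores of 89.59 in replicate 1 and 46.80 in replicate 2. The last combined peak, at 15273646 to 15274185, ended 5160 bp from the right end, with a score of 9.41 and a counterpart in replicate 1 only. Replicate 1 alone had 2 weak peaks beyond it, the last of which, with a score of 2.59, ended at the final base of the chromosome. In replicate 2 the last peak ended 7674 bp from the end.

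The other very wide sites were spread over the arm. The second widest combined peak spanned 14468 bp at 13283816 to 13298283 with a score of 127.06, which ranked 3 in the arm. It held 3 replicate 1 peaks, the best of 12888 bp with a score of 99.89, and 7 replicate 2 peaks, the best of 4533 bp with a score of 102.52. These covered 95.9% and 93.8% of it. The third widest was the peak of 8135 bp in the dense tract near the empty interval. The next were 7779 bp at 13187957 to 13195735, with a score of 75.62, and 6960 bp at 14601936 to 14608895, with a score of 95.26.

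The strongest sites of the arm were of mixed width, and 3 of the 10 best lay within 8.76 kb. The best was 2893 bp at 14241519 to 14244411, with a score of 146.65 in the combined list, 184.20 in replicate 1, where it ranked 1 in the arm, and 94.69 in replicate 2, where it ranked 4. The second was 1393 bp at 14235656 to 14237048, with scores of 129.91, 161.98 and 66.64 in the same order of lists. Between them lay 1356 bp at 14237530 to 14238885, with scores of 112.56, 125.91 and 55.64. All 3 were single peaks in both replicates, and replicate 2 drew each of them narrower, at 2308, 1295 and 918 bp.

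Further sites among the 10 best lay elsewhere in the arm. A peak of 620 bp at 11759129 to 11759748 scored 122.60 in the combined list and 141.38 in replicate 1, and its score of 117.73 in replicate 2 was the highest of the arm there. A peak of 506 bp at 12919152 to 12919657 scored 119.82, 124.98 and 75.81. A peak of 476 bp at 13016309 to 13016784 scored 94.89, 83.09 and 53.81. A peak of 1161 bp at 13315410 to 13316570, 17.1 kb outward of the 14468 bp peak, scored 112.56, 96.20 and 58.54. In each of these the replicate peaks covered at least 69.5% of the combined peak.

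One of the 10 best sites had unequal support. The combined peak of 1043 bp at 10502224 to 10503266 had a score of 96.71 and ranked 8 in the arm. In replicate 2 its best peak, of 556 bp, had a score of 109.48 and ranked 2. In replicate 1 it was represented by a peak of 216 bp with a score of 19.43, which ranked 133 and covered 20.7% of the site. The rank of this site in the combined list is therefore near its rank in replicate 2 and far from its rank in replicate 1.

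Peaks in the arm were grouped. The median gap between neighbouring peaks was 1168 bp in the combined list, with quartiles of 270.5 and 4072 bp, and 1260 bp in replicate 1 and 1488 bp in replicate 2. Of the 899 gaps in the combined list, 426 were at most 1 kb. Joining peaks over such gaps gave 31 clusters of at least 5 peaks in the combined list and 32 and 24 in replicates 1 and 2, and these held 22.8%, 26.5% and 23.3% of the arm's peaks. Single peaks with no neighbour within 1 kb made up 31.6%, 33.3% and 36.3%. No such shares are given here for other regions, so this grouping is not shown to be particular to the arm. A cluster can also be 1 site in pieces. In replicate 2 a cluster of 15 peaks, at 15200258 to 15219292, lay wholly within 1 peak of the combined list.

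The clusters with most peaks differed widely in strength. The cluster with most peaks in the combined list had 12 peaks over 7249 bp at 12281183 to 12288431, with a highest score of 18.31. Peaks covered 48.7% of it in the combined list and 10.7% and 13.4% in replicates 1 and 2. The second had 10 peaks over 14942 bp at 12657847 to 12672788, with a highest score of 67.63, and was covered to 83.4%, 81.1% and 40.7%. Another 4 clusters had 9 peaks each. That at 12260942 to 12267317 spanned 6376 bp, with a highest score of 21.47 and coverage of 83.3%, 59.6% and 27.8%. That at 13278537 to 13299428 spanned 20892 bp, held the peak of 14468 bp with the score of 127.06, and was covered to 91.4%, 83.7% and 79.9%. The highest scores of the other two, at 12344747 to 12350490 and 12710129 to 12717156, were 24.27 and 14.29.

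The limit of the arm is a fixed fraction of the chromosome and does not follow a break in the peaks. The first combined peaks inside it were at 10205331 to 10206153, 10236042 to 10236423 and 10247260 to 10248554, with scores of 15.55, 6.35 and 27.12. The last outside it were at 10161638 to 10161845, 10170326 to 10170482 and 10174341 to 10175026, with scores of 4.31, 4.99 and 135.07. The last of these, 686 bp wide and its centre 11.5 kb short of the limit, would have ranked second in the arm.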

How the data were processed

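The deposited lists hold binding sites from MACS on build WormBase WS220, per the file headers. The authors deposited 1 list for each ChIP library and 1 combined list, with a start, an end and a score for each peak. The quantity behind the deposited score, the making of the combined list, the MACS version and threshold, the control and the aligner were not stated in the labels or headers. Scores were therefore compared within a list, and between lists only as ranks or in correlations over pairs of peaks. Per the labels' protocols, ground frozen worms were fixed with EGS and then EGS plus formaldehyde before sonication.

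From these lists, peaks were placed by their centre, and arms and centres were the outer and middle parts, each 33.3% of a chromosome. The end of a chromosome was the last base of any peak. The 2 mitochondrial peaks of replicate 1 were set aside. Overlap meant at least 1 bp. Regions were named by rule: the 10 best-scoring peaks with both replicates, the 5 widest, the 3 richest and 3 poorest windows, the peaks at the limits and at the chromosome end, the 3 strongest with neither replicate and the 3 largest clusters, ties going to the lower start. The narrow site at 15258233, the 2 neighbours of the widest peak, the tract at 10541595, the tied clusters and the window at 11400001 were named after their values were seen. The sites and tests were chosen with earlier results of these data known. The functions were tested on simulated peaks. Python 3.11.15, numpy 2.4.6, pandas 2.3.3, scipy 1.17.1 and matplotlib 3.10.9 were used.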

Additional observations from a re-analysis of the deposited data

How the results depend on the processing

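The cause of each shift below was not tested unless the setting itself fixes it. The share of right-arm combined peaks in both replicates, 43.2%, was 32.9% with 50% of each combined peak covered and 83.5% at or above the median score of the list. For replicate 1 peaks with a partner, the 58.2% became 39.4% with 50% of both peaks overlapping and 62.5% in the stronger part of each list, and for replicate 2 peaks the 82.5% became 47.5% with 50% of both.

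The ratio of right to left arm in peak density, 1.10, changed direction with the score: it was 0.87 at or above the median score, and, in alternatives chosen after seeing the data, 0.45 in the top 10%, 0.89 for peaks with both replicates and 1.44 below the median. It was 1.15 for covered length, 1.24 with peaks within 1 kb merged, 1.13 for arms of 25% each, and 1.03 in the list of each replicate alone. The ratio of right arm to centre, 2.85, ranged from 2.90 to 3.85 in the replicate lists, and was 4.02 for covered length, 4.06 in the top 10% and 3.54 with both replicates.

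The ratio of outer to inner stretch, 2.57, ranged from 2.11 to 2.40 in the replicate lists. The median width of 342.5 bp ranged from 306.5 to 309.5 bp there and was 621 bp for peaks with both replicates. The median score of 7.83 ranged from 6.95 to 7.00 and was 19.69. The median gap of 1168 bp ranged from 1260 to 1488 bp and was 3493 bp at or above the median score. The 31 clusters became 15 with gaps of at most 500 bp and 49 with gaps of at most 2 kb. Of 46 alternatives, 15 moved a value by less than the spread between replicates, its interval or 1.5 times. A replicate list alone cannot give the overlap shares. No paired analysis was possible because, for ChIP against input, input peaks were not analysed here; regions were compared within each ChIP library. With depth unknown, a peak missing from a list may lie under its threshold or be absent.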

Other observations

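The sites in this part were picked for their values. Of the arm's combined peaks with both replicates, 27 were among the 20 best of at least 1 replicate and 12 were among the 20 best of both. Besides the site at 10502224 described above, the ranks differed most at 15141728 to 15142822, where the replicate 1 peak had a score of 69.57 and ranked 20 in the arm and the replicate 2 peak had a score of 14.51 and ranked 143. At 11616848 to 11620491 the order was the other way round, with a score of 27.98 and a rank of 88 in replicate 1 and a score of 78.52 and a rank of 5 in replicate 2.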
